A study of Homo sapiens with 20 samples.

Results

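The 10 genes described here were GDF15, a secreted stress cytokine, and 9 genes of the integrated stress response: ATF4, ATF5, DDIT3, TRIB3, DDIT4, SESN2, ASNS, PSAT1 and CHAC1. They were taken by gene name from a table of 58870 genes, each name matching 1 row, and 45 of the 54563 consensus peaks of the Cut&Run table overlapped the 50 kb to either side of their transcription starts. RNA was sequenced from A375 and 1205Lu cells, 2 human melanoma lines grown in serum, after transfection of non-targeting siRNAs (si-NT) or of siRNAs against FOSL1, the gene of the AP-1 transcription factor FRA1 (si-FRA1), giving 4 groups of 3 samples. FRA1 binding was mapped in the same lines by Cut&Run, in which an antibody directs a nuclease to its target on chromatin, with 3 FRA1 libraries and 1 IgG control library per line and no siRNA named in their labels. The time after transfection and the number of different siRNAs are not given in the sources used here, nor whether replicates came from separate cultures, so p-values measure only the spread between these samples, which may be technical. For 1 sample, A375 si-FRA1 replicate 3, the label gives genomic DNA as the molecule although its title and treatment are those of an RNA-seq sample.

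The integrated stress response starts when kinases that sense amino acid shortage, heme shortage, double-stranded RNA or misfolded proteins phosphorylate the initiation factor eIF2. General translation then slows while the mRNA of ATF4 is translated more, and ATF4 with its partners ATF5, C/EBP factors and DDIT3 (CHOP) switches on genes of amino acid synthesis, transport and stress signaling. Because ATF4 is controlled at translation, its mRNA does not measure its protein, and only mRNA was measured here. GDF15 is a known target of ATF4 and CHOP and also of p53, and in cancer it is studied as a circulating signal of tumor burden and weight loss.

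FOSL1 mRNA checked the labels. The 3 control samples of A375 had 413, 424 and 408 CPM, counts scaled to library size by the TMM method, and the 3 silenced samples 25.7, 25.7 and 26.0 (log2 fold change -4.01 ± 0.03, here and below with its standard error). The 1205Lu controls had 492, 484 and 478 CPM and the silenced samples 69.4, 70.9 and 65.1 (-2.84 ± 0.03). The remaining FOSL1 mRNA thus differed between the lines, and the difference of the responses was 1.19 ± 0.04 on the log2 scale (edgeR quasi-likelihood test, adjusted p = 1.24e-16). RNA-seq totals lay between 20573412 and 32518903 counts. Mitochondrial transcripts took 9.85 to 10.0% of counts in 1205Lu si-NT and 8.85 to 8.95% in 1205Lu si-FRA1, and 10.2 to 10.5% over the A375 samples. This share moved with the treatment in 1205Lu cells, and its part in the responses below was not tested. The melanocyte lineage factor SOX10 was present in both lines (43.5 to 44.3 CPM in A375 si-NT and 902 to 931 in 1205Lu si-NT). The pigment genes PMEL, MLANA, TYR and DCT had means of at most 1.13 CPM. Of 3 genes of dedifferentiated melanoma, AXL and SOX9 were high in A375 and 1205Lu si-NT (AXL 715 and 499 CPM, SOX9 113 and 650). The 3rd, NGFR, was low (7.77 and 3.12). The lineage genes MITF (52.2 and 3.55 CPM) and S100B (0.99 and 427) differed between the lines in opposite directions. Markers of leukocytes, endothelial cells and keratinocytes reached at most 1.79 CPM in any sample. These are bulk cultures, in which fewer cells making a transcript and less transcript per cell cannot be told apart.

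Short sequences at these genes show the binding elements on which the stress response and FRA1 are usually read. ATF4 paired with a C/EBP factor binds the C/EBP-ATF response element, searched here as TGATGNAA on both strands, and FRA1 with a JUN partner binds the AP-1 element TGACTCA, also searched on both strands. The forms do not overlap. Among 35116 RefSeq promoter windows (GRCh38.p14, 250 bases before to 50 after the start) 3.617% held the first and 4.949% the second. All 10 genes had at least 1 window, and ASNS and CHAC1 held a C/EBP-ATF match while ATF5 and DDIT3 held an AP-1 match. The lines below give those 4 matches on the gene's strand, then 4 matches from peaks of the Cut&Run table on the plus strand of GRCh38, with the matching letters, or their reverse complement, in capitals.
ASNS promoter, C/EBP-ATF element: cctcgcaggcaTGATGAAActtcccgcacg
CHAC1 promoter, C/EBP-ATF element: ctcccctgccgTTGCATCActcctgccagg
ATF5 promoter, AP-1 element: ggagagtgctgTGACTCAtgctggactcta
DDIT3 promoter, AP-1 element: gcgcgcgcgcaTGACTCAcccacctcctcc
DDIT3 peak, C/EBP-ATF element: gggggcggggaTGATGCAAtgtttggcaac
TRIB3 peak, C/EBP-ATF element: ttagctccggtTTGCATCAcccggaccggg
PSAT1 peak, C/EBP-ATF element: ccctaggcgctTTGCATCAgcgtgcacagc
GDF15 peak, AP-1 element: cccagccctgcTGACTCAtactcagctgcc

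The ASNS run lies at chr7:97872458-97872487 and the CHAC1 run at chr15:40953251-40953280, both upstream of the gene's MANE start, the start of the reference transcript. The ATF5 run lies at chr19:49928707-49928736, upstream of the MANE start. The DDIT3 AP-1 run lies at chr12:57520737-57520766 on the minus strand and the DDIT3 C/EBP-ATF run at chr12:57520802-57520831, both upstream of its start. The TRIB3 run occurs 3 times letter for letter in the untranslated first exon, at chr20:380881-380910, chr20:380914-380943 and chr20:380947-380976. The PSAT1 run at chr9:78297381-78297410 is in intron 1, and the GDF15 run at chr19:18374593-18374622 is upstream of the MANE start and 72 bases from the centre of its peak. A match shows that these letters are present, and a window with no match says only that these letters are not in it.

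Upon FRA1 silencing the 10 genes did not move as 1 block. GDF15 and SESN2 rose in both lines and ASNS fell in both, while the transcripts of ATF4 and DDIT4 fell in A375 cells and rose in 1205Lu cells. A gene was called at a Benjamini-Hochberg adjusted p under 0.05 over all genes tested in edgeR's quasi-likelihood test, within a line, and folds are si-FRA1 over si-NT. In A375 cells 2 of 10 were called as higher and 5 as lower, where 29.9% of 13598 protein-coding genes tested were called as higher and 27.8% as lower. In 1205Lu cells 6 of 10 were called as higher and 2 as lower, against 24% and 23% of 13728. With a log2 fold change beyond 1 also required, A375 kept GDF15 alone (background 2.78% higher and 2.51% lower) and 1205Lu kept GDF15 and TRIB3 (background 1.11% higher and 1.86% lower). The median log2 fold change of the 10 was -0.21 in A375 and 0.51 in 1205Lu cells, where that of all protein-coding genes tested was 0.01 and -0.00. Silencing changed so many genes that a call alone sets none of the 10 apart.

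**Figure D1:**
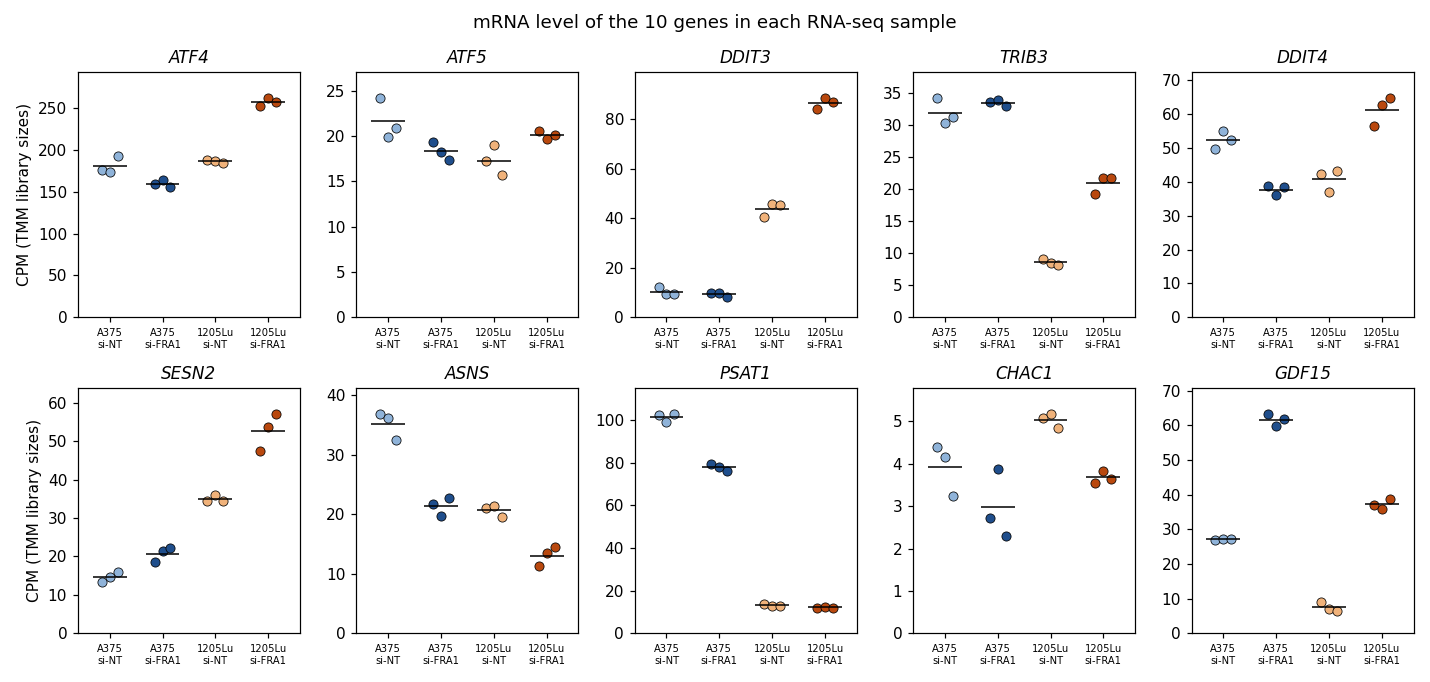
CPM (y axis, from 0, separate scale per panel) of each gene in each of the 12 RNA-seq samples, by group (x axis). Points are samples and bars are group means of 3. GDF15 lies at 27.01 to 27.3 CPM in A375 si-NT and 59.9 to 63.2 in A375 si-FRA1, and at 6.54 to 8.98 and 35.8 to 38.7 in 1205Lu cells.

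ATF4, the central transcription factor of the response, had 176, 173 and 192 CPM in A375 si-NT and 159, 164 and 156 in A375 si-FRA1. Every silenced A375 sample was below every control, by a small margin (log2 fold change -0.18 ± 0.03, adjusted p = 7.1e-05, edgeR). In 1205Lu cells ATF4 had 187, 187 and 185 CPM with si-NT and 253, 262 and 257 with si-FRA1. Every silenced 1205Lu sample was above every control (0.45 ± 0.02, adjusted p = 4.31e-12). ATF4 was the most abundant of the 10 transcripts per length in each of the 4 groups.

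ATF5, a factor related to ATF4 and likewise controlled at translation, moved by little in either line. It had 24.2, 19.9 and 20.8 CPM in A375 si-NT and 19.3, 18.2 and 17.4 in A375 si-FRA1, groups that lay side by side without overlap (-0.24 ± 0.08, adjusted p = 0.0145, edgeR). That call rested on single libraries: without si-NT replicate 1 the adjusted p was 0.131, and without si-FRA1 replicate 3 it was 0.0637. In 1205Lu cells ATF5 had 17.2, 19.0 and 15.7 CPM with si-NT and 20.6, 19.6 and 20.1 with si-FRA1, and the rise missed the threshold (0.20 ± 0.08, adjusted p = 0.0513). It passed without 1205Lu si-NT replicate 2 (0.28, adjusted p = 0.0144). ATF5 overlaps NUP62 and IL4I1 in the annotation, so reads there may be divided between genes.

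DDIT3, which encodes CHOP, the factor tied to cell death under lasting stress, differed most between the lines among the 3 factors. It had 12.3, 9.18 and 9.32 CPM in A375 si-NT and 9.59, 9.93 and 8.06 in A375 si-FRA1. The A375 groups overlapped (-0.16 ± 0.12, adjusted p = 0.299, edgeR). The 1205Lu controls had 40.4, 45.9 and 45.3 CPM and the silenced samples 84.1, 88.5 and 87.0, and the 1205Lu groups stood far apart (0.97 ± 0.05, adjusted p = 2.05e-12). DDIT3 shares its start region with MBD6 and with a read-through transcript.

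TRIB3, a pseudokinase that CHOP induces and that dampens ATF4 and AKT, was already high in A375 cells. It had 34.2, 30.3 and 31.3 CPM in A375 si-NT and 33.6, 33.9 and 33.0 in A375 si-FRA1, ranges that overlapped (0.07 ± 0.06, adjusted p = 0.361, edgeR). In 1205Lu cells TRIB3 went from 9.05, 8.41 and 8.23 CPM with si-NT to 19.2, 21.8 and 21.8 with si-FRA1, with no overlap (1.27 ± 0.09, adjusted p = 6.25e-10). The silenced 1205Lu samples still lay below all 6 A375 samples.

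DDIT4 and SESN2 encode inhibitors of mTORC1, the kinase complex that couples nutrients to growth and protein synthesis. DDIT4 had 49.9, 55.0 and 52.5 CPM in A375 si-NT and 38.7, 36.1 and 38.4 in A375 si-FRA1 (-0.48 ± 0.05, adjusted p = 2.94e-08, edgeR). The 1205Lu controls had 42.3, 37.1 and 43.1 CPM and the silenced samples 56.6, 62.8 and 64.8 (0.57 ± 0.06, adjusted p = 1.01e-07). Neither pair of groups overlapped, and the directions were opposite. SESN2, an mTORC1 inhibitor that senses leucine, had 13.4, 14.6 and 15.9 CPM in A375 si-NT and 18.6, 21.3 and 22.2 in A375 si-FRA1 (0.49 ± 0.09, adjusted p = 4.78e-05). In 1205Lu cells SESN2 had 34.4, 36.0 and 34.5 CPM with si-NT and 47.4, 53.7 and 56.9 with si-FRA1 (0.58 ± 0.06, adjusted p = 8.33e-08). SESN2 thus rose in both lines from different levels.

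ASNS, PSAT1 and CHAC1 encode metabolic enzymes, and no call among them was a rise. ASNS makes asparagine and is the textbook ATF4 target. It had 36.8, 36.1 and 32.4 CPM in A375 si-NT and 21.8, 19.7 and 22.7 in A375 si-FRA1 (-0.72 ± 0.07, adjusted p = 3.1e-09, edgeR). In 1205Lu cells ASNS had 21.1, 21.4 and 19.5 CPM with si-NT and 11.3, 13.4 and 14.5 with si-FRA1 (-0.68 ± 0.09, adjusted p = 3.21e-06). The groups were apart in both lines, so in 1205Lu cells ASNS fell while ATF4 rose. PSAT1, the aminotransferase of serine synthesis, had 102, 99.2 and 103 CPM in A375 si-NT and 79.3, 78.2 and 75.9 in A375 si-FRA1 (-0.39 ± 0.03, adjusted p = 1.68e-09). In 1205Lu cells PSAT1 had 13.8, 13.04 and 12.8 CPM with si-NT and 11.9, 12.5 and 12.1 with si-FRA1, ranges that did not overlap but a difference that was not called (-0.14 ± 0.09, adjusted p = 0.271). CHAC1, which degrades glutathione and lies downstream of CHOP, was the lowest of the 10 and the least precisely measured. It had 4.39, 4.15 and 3.23 CPM in A375 si-NT and 2.73, 3.88 and 2.31 in A375 si-FRA1, groups that overlapped (-0.41 ± 0.20, adjusted p = 0.096). In 1205Lu cells CHAC1 had 5.09, 5.16 and 4.85 CPM with si-NT and 3.56, 3.84 and 3.63 with si-FRA1 (-0.47 ± 0.16, adjusted p = 0.0203). The CHAC1 call in 1205Lu was lost when si-NT replicate 1 or 2 or si-FRA1 replicate 1 or 3 was left out (adjusted p = 0.0557, 0.0559, 0.0567 and 0.0581), and in A375 CHAC1 was called without si-FRA1 replicate 2 (-0.64, adjusted p = 0.0174).

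GDF15 had the largest rise of the 10 in both lines. It had 27.01, 27.3 and 27.3 CPM in A375 si-NT and 63.2, 59.9 and 61.8 in A375 si-FRA1, 2.26-fold higher (95% interval 2.11 to 2.41, log2 fold change 1.17 ± 0.05, adjusted p = 1.01e-15, edgeR). In 1205Lu cells GDF15 had 8.98, 7.03 and 6.54 CPM with si-NT and 37.2, 35.8 and 38.7 with si-FRA1, 4.84-fold higher (95% interval 4.27 to 5.49, log2 fold change 2.28 ± 0.09, adjusted p = 9.61e-14). No silenced sample came near a control sample of its line. Over the alternatives tried the log2 fold change stayed between 1.16 and 1.201 in A375 and between 2.19 and 2.45 in 1205Lu cells. The order of the 4 groups by GDF15 was A375 si-FRA1, 1205Lu si-FRA1, A375 si-NT and 1205Lu si-NT, with no overlap between neighbours.

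**Figure D2:**
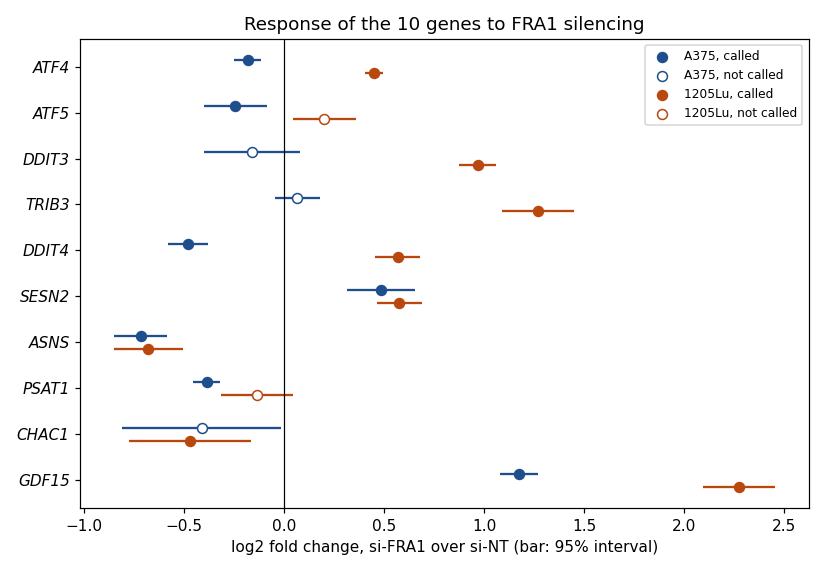
Log2 fold change of si-FRA1 over si-NT (x axis) for each gene (y axis) in A375 (blue) and 1205Lu cells (orange), with 95% intervals as bars. Filled points were called at an adjusted p under 0.05: SESN2 and ASNS nearly coincide between lines, while GDF15 lies at 1.17 and 2.28 and DDIT4 at -0.48 and 0.57.

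Whether the response differed between the lines was tested as the interaction of line and treatment over all 12 samples. For 7 of 10 genes the response was more positive in 1205Lu than in A375 cells, and for 0 it was more positive in A375, against 19.9% and 18.9% of 14844 protein-coding genes tested. The difference was 1.21 ± 0.10 on the log2 scale for TRIB3, 1.13 ± 0.12 for DDIT3, 1.11 ± 0.10 for GDF15 and 1.06 ± 0.08 for DDIT4. It was smaller for ATF4 (0.64 ± 0.05), ATF5 (0.46 ± 0.12) and PSAT1 (0.26 ± 0.08, adjusted p = 0.00891, edgeR). For PSAT1 both log2 fold changes were negative and that of A375 was the more negative. For SESN2, ASNS and CHAC1 no difference was called. The ratio of the folds, 1205Lu over A375, had a 95% interval of 0.926 to 1.25 for SESN2, 0.884 to 1.22 for ASNS and 0.675 to 1.39 for CHAC1, so differences of those sizes remain possible.

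The lines also differed before silencing. Among si-NT samples 2 of the 10 genes were higher in 1205Lu than in A375 cells and 6 were lower, against 37.8% and 44% of 14844 protein-coding genes. DDIT3 was 4.28-fold higher (95% interval 3.82 to 4.80) and SESN2 2.38-fold higher (2.14 to 2.65) in 1205Lu cells. PSAT1 was lowest there relative to A375, at 0.131 of its level (0.122 to 0.140), followed by TRIB3 at 0.269, GDF15 at 0.280 and ASNS at 0.589. DDIT4 and ATF5 were lower by a small margin, at 0.779 and 0.799. ATF4 was not called (log2 1205Lu over A375 0.05 ± 0.03, adjusted p = 0.192, edgeR), nor did CHAC1 (0.36 ± 0.18, adjusted p = 0.0757). Both were called as higher in 1205Lu with DESeq2 (adjusted p = 0.0039 and 0.0488) and with upper-quartile normalization, and ATF4 changed sign with no filter on low counts (-0.07).

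Levels were compared between genes only per length, as CPM per kb of the MANE transcript. In A375 si-NT the order was ATF4 (127 ± 7 SD, n = 3), PSAT1 (46.0), DDIT4 (30.1), GDF15 (22.7), ASNS (14.7), TRIB3 (13.6), DDIT3 (11.4), ATF5 (10.8), SESN2 (4.23) and CHAC1 (2.58). From ASNS to ATF5 each neighbour overlapped the next over the 3 samples. In 1205Lu si-NT the order was ATF4 (131 ± 1 SD, n = 3), DDIT3 (48.6), DDIT4 (23.4), SESN2 (10.1), ASNS (8.66), ATF5 (8.61), GDF15 (6.26), PSAT1 (5.99), TRIB3 (3.63) and CHAC1 (3.31), where ASNS and ATF5 overlapped, as did GDF15 and PSAT1. With silencing GDF15 became the second of the 10 in A375 (51.3 ± 1.4) and the fourth in 1205Lu cells (31.0 ± 1.2), next to DDIT4 (35.2 ± 2.5). Per kb of all annotated exons the ATF4 level in A375 si-NT was 69.0, since a longer union of exons divides the same counts.

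The protein-coding genes whose pattern over the 12 samples was most like that of GDF15 were found by the root-mean-square difference of log2 CPM, each gene centred on its own mean, among 10796 genes with a mean of at least 5 CPM. They were PCDH18, a protocadherin (0.32), TP53INP1, a p53 target (0.36), UNC13A, a synaptic release factor (0.36), PLSCR4, a scramblase (0.44), and PDGFRB, a growth factor receptor (0.44). Like GDF15, and as their choice by likeness to it sets, all 5 rose in both lines, by 0.80 to 1.33 on the log2 scale in A375 and by 1.16 to 1.64 in 1205Lu cells. Among the other 9 genes of the report TRIB3 was nearest (0.54) and DDIT3 farthest (2.09). This likeness reflects differences between the lines as well as the response, since both enter the 12 samples.

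Other targets of ATF4 and CHOP were called in both directions, with more falls in A375 than in 1205Lu cells. Of 46 such genes on a list written from general knowledge, 7 rose and 29 fell in A375 cells (45 tested, median log2 fold change -0.17), and 18 rose and 14 fell in 1205Lu cells (44 tested, median 0.06). Of all protein-coding genes 29.9% rose and 27.8% fell in A375, and 24% rose and 23% fell in 1205Lu cells. Of the 46 listed genes, 11 rose in 1205Lu and fell in A375, 1 did the reverse (EPRS), 6 rose in both and 9 fell in both. The shares of all protein-coding genes with these joint patterns were not computed. The interaction called 25 of 45 as more positive in 1205Lu and 4 as more positive in A375, against 19.9% and 18.9% of all protein-coding genes. Beyond a log2 fold change of 1 stood CTH in A375, and ATF3 and KLHL24 in 1205Lu cells.

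**Figure D3:**
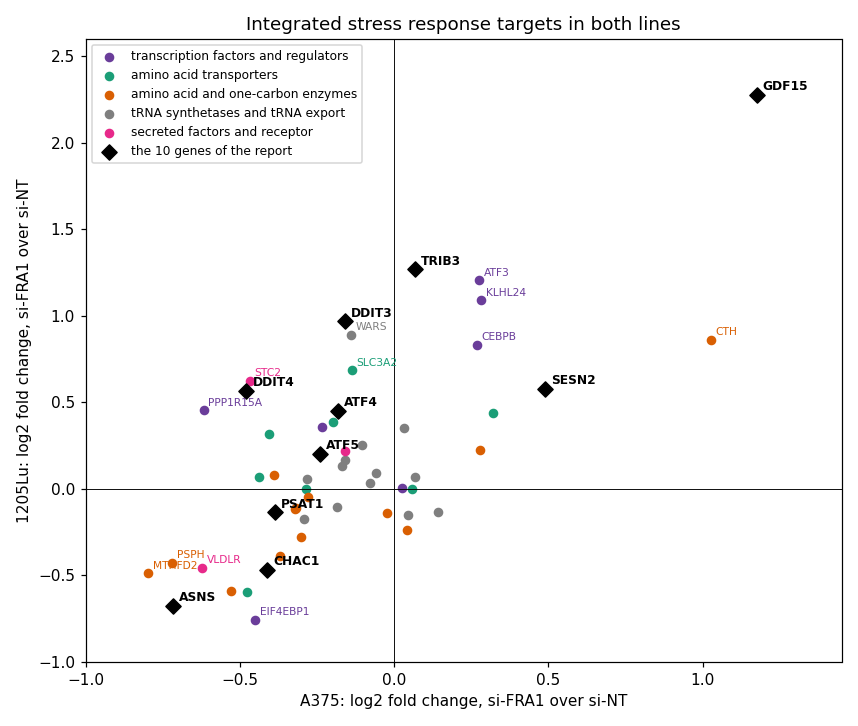
Log2 fold change of si-FRA1 over si-NT in A375 (x axis) and 1205Lu cells (y axis) for the 10 genes (black diamonds) and the other listed targets of ATF4 and CHOP tested in both lines (circles, colored by class). The upper left holds genes such as DDIT4, PPP1R15A and WARS, lower in A375 and higher in 1205Lu, and the lower left holds ASNS, MTHFD2 and PSPH, lower in both.

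Of the transcription factors and regulators on that list 5 of 7 tested rose and 1 fell in 1205Lu cells, and 3 of 8 rose and 3 fell in A375. Of all protein-coding genes 24% rose and 23% fell in 1205Lu, and 29.9% rose and 27.8% fell in A375. With so few genes the A375 counts were close to those shares. ATF3, a stress-induced factor that forms dimers with JUN proteins, went from a mean of 5.76 to 13.5 CPM in 1205Lu cells (log2 fold change 1.21 ± 0.13, adjusted p = 2.69e-07, edgeR) and from 9.69 to 11.8 in A375 (0.28 ± 0.10, adjusted p = 0.0245). KLHL24 rose by 1.09 ± 0.06 in 1205Lu and 0.28 ± 0.06 in A375, and CEBPB, a dimer partner of ATF4, by 0.83 ± 0.03 and 0.27 ± 0.06. PPP1R15A (GADD34), which brings a phosphatase to eIF2 and so ends the response, fell from 51.3 to 33.6 CPM in A375 (-0.62 ± 0.05) and rose from 217 to 299.8 in 1205Lu cells (0.45 ± 0.02), an interaction of 1.08 ± 0.05. EIF4EBP1, a repressor of cap-dependent translation, fell in both (-0.45 ± 0.07 and -0.76 ± 0.06).

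Of 8 amino acid transporters 1 rose and 6 fell in A375 cells, and 4 rose and 1 fell in 1205Lu cells. The shares of all protein-coding genes were 29.9% up and 27.8% down in A375, and 24% up and 23% down in 1205Lu. SLC38A2, a carrier of neutral amino acids, was the one that rose in A375 (0.32 ± 0.01), and it rose in 1205Lu as well (0.44 ± 0.03). SLC3A2, the shared chain of several exchangers, fell by 0.14 in A375 and rose by 0.69 in 1205Lu cells, and SLC7A11, the cystine carrier, fell by 0.20 and rose by 0.39. SLC1A4 fell most of this class in 1205Lu cells (-0.60 ± 0.04).

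Of 13 enzymes of amino acid and one-carbon metabolism 2 rose and 8 fell in A375 and 2 rose and 7 fell in 1205Lu cells. Among all protein-coding genes 29.9% rose and 27.8% fell in A375, and 24% rose and 23% fell in 1205Lu. MTHFD2, the mitochondrial folate enzyme, fell from 123 to 71.0 CPM in A375 (-0.80 ± 0.04) and from 54.7 to 39.4 in 1205Lu cells (-0.49 ± 0.05). PSPH, the last step of serine synthesis, fell by 0.72 and 0.43 in the same order, and GPT2 by 0.53 and 0.59. CTH, which makes cysteine from cystathionine, rose from 8.43 to 17.2 CPM in A375 (1.03 ± 0.09) and from 4.86 to 8.99 in 1205Lu cells (0.86 ± 0.16).

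The tRNA synthetases with XPOT, an exporter of tRNA, moved by small amounts, with 1 up and 9 down of 13 in A375 and 6 up and 4 down in 1205Lu cells. For this class and the next, the shares of all protein-coding genes were 29.9% up and 27.8% down in A375. In 1205Lu they were 24% up and 23% down, and the 4 falls there were close to that share. WARS, the tryptophan enzyme, was the exception in size and rose from 141 to 264 CPM in 1205Lu cells (0.89 ± 0.03), while it fell by 0.14 in A375. WARS is also known as an interferon-induced gene. Of the secreted factors and the receptor VLDLR, all 3 tested fell in A375, VLDLR by 0.62 and 0.46 in A375 and 1205Lu, while VEGFA fell by 0.16 in A375 and rose by 0.22 in 1205Lu cells. FGF21, the other well-known ATF4-dependent hormone, had means of at most 0.06 CPM and was not tested.

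The kinases that start the response did not rise together at the mRNA level. EIF2AK2 (PKR) fell in both lines, from 218 to 157 CPM in A375 (-0.48 ± 0.03) and from 167 to 149.5 in 1205Lu cells (-0.18 ± 0.03). EIF2AK4 (GCN2), the sensor of uncharged tRNA, rose by 0.08 in A375 and fell by 0.16 in 1205Lu cells. EIF2AK3 (PERK), the sensor in the endoplasmic reticulum, and EIF2AK1 (HRI), the heme sensor, were not called in either line (log2 fold changes 0.11 and 0.07 for EIF2AK3, -0.01 and -0.06 for EIF2AK1). PPP1R15B, the constitutive counterpart of PPP1R15A, rose by 0.35 ± 0.04 in 1205Lu cells and was not called in A375 (-0.02). Over the 15 sensors and subunits of the eIF2 machinery 6 rose and 3 fell in A375 and 5 rose and 4 fell in 1205Lu cells, close to the shares of all protein-coding genes (29.9% and 27.8% in A375, 24% and 23% in 1205Lu). OMA1 and EIF2B2 rose in both lines and EIF2B1 fell in both. Activity of these kinases depends on phosphorylation, which RNA-seq does not measure.

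Of the partners of GDF15, FURIN, a protease that cleaves its precursor, rose from 56.8 to 90.2 CPM in A375 (0.66 ± 0.04) and from 77.0 to 96.1 in 1205Lu cells (0.30 ± 0.04). GFRAL, the receptor that in the body is restricted to the hindbrain, had means of at most 0.10 CPM, and RET, its signaling partner, at most 0.57.

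FRA1 Cut&Run counts were then examined at the 45 peaks near the 10 genes, of which 15 were promoter peaks with an annotated start of the gene within 3 kb. CHAC1 had no promoter peak. Totals in peaks were 3354095 to 5316527 for the A375 FRA1 libraries, 583750 to 897407 for the 1205Lu FRA1 libraries, and 383994 and 314569 for IgG in A375 and 1205Lu. The call of an enriched peak asked for 10 counts or more in each of the 3 FRA1 libraries and, in each of them alone, for 4 or more times (IgG count + 1), without scaling, so depth enters it. By that rule 24 of 45 peaks were enriched in A375, where 57.4% of all consensus peaks were, and 1 of 45 in 1205Lu cells, where 7.09% were, and 0 in both. With every library scaled to the same total in peaks, 0 of the 45 passed in either line. That scaling raises the IgG counts too and takes out the average excess of FRA1 over IgG. The share of all consensus peaks passing it was not computed, so the 0 does not set these 45 peaks apart. Over the 45 peaks the mean FRA1 count over the IgG count plus 1 had a median of 5.96 in A375 and 1.0 in 1205Lu cells.

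**Figure D4:**
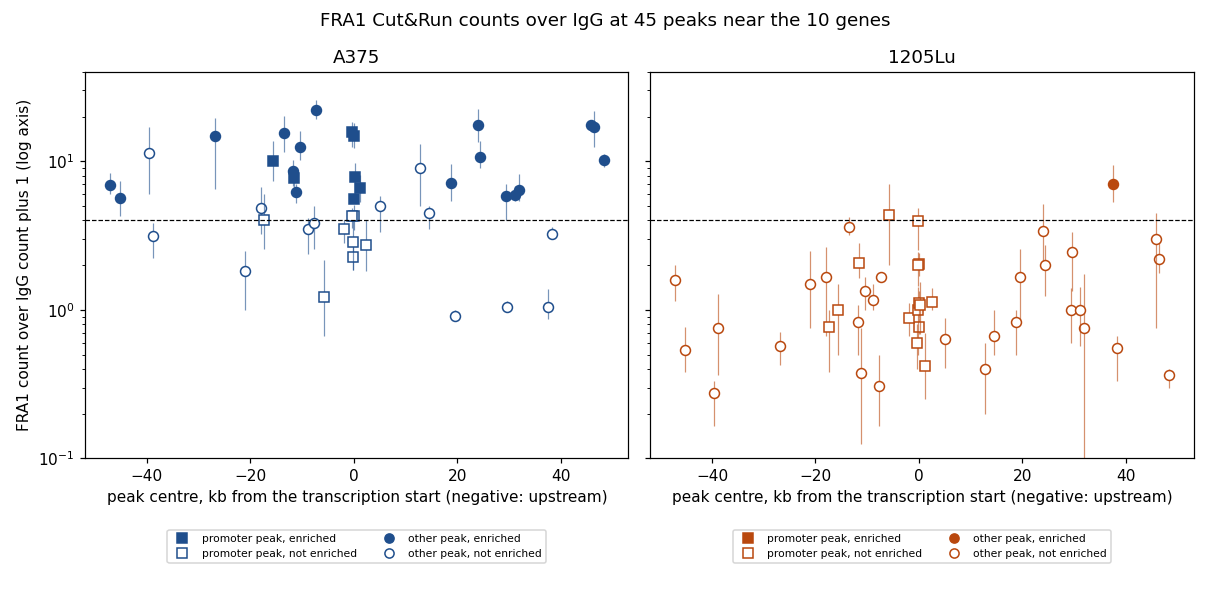
Mean FRA1 count divided by the IgG count plus 1 (y axis, log scale, not scaled for depth) at each of the 45 peaks against the distance of its centre from the MANE transcription start (x axis, kb), in A375 (left) and 1205Lu cells (right). Vertical lines span the 3 FRA1 libraries (one reaches a count of 0), squares are promoter peaks, filled symbols are enriched and the dashed line is at 4. Of the 45 peaks 24 are filled in A375 and 1 in 1205Lu.

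In A375 cells 7 of the 15 promoter peaks were enriched. The peak at the ATF4 start, chr22:39519565-39521046, had 174, 257 and 229 counts with FRA1 and 13 with IgG, 16.9 times the IgG count (95% interval 9.83 to 31.95, exact, for counting error only). The peak at the DDIT3 start, chr12:57519828-57521097, which holds both elements printed for DDIT3, had 111, 164 and 122 counts and 8 with IgG (16.5 times, 8.31 to 38.6). This window is also within 3 kb of the start of MBD6. The peak over the TRIB3 start, chr20:380732-383010, which contains the 3 repeats and 2 further C/EBP-ATF matches, had 69, 105 and 85 counts and 12 with IgG. PSAT1 had 54, 98 and 85 counts over an IgG count of 9 at chr9:78296857-78297756, and ASNS, at its C/EBP-ATF match, had only 21, 23 and 23 over an IgG count of 3 (chr7:97872067-97872543). Another, with 22, 41 and 27 counts and 2 with IgG, lay 1961 bases from an alternative upstream start of TRIB3, while the peak over that start was not enriched (18, 42 and 24 counts, IgG 6). The enriched promoter peak of GDF15 lay at an upstream annotated start, chr19:18373981-18375089, centred at position -11623 relative to the MANE start, with 74, 112 and 94 counts and 11 with IgG. At the MANE start of GDF15 itself, chr19:18385554-18386116, A375 had 39, 44 and 32 counts and 8 with IgG. Over the 3 libraries that was 4.79 times the IgG count (95% interval 2.35 to 11.4), and the peak was not called because replicate 3 alone was under the limit.

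The promoter peaks of ATF5, DDIT4 and SESN2 were not enriched. DDIT4 had 28, 42 and 26 counts at its start in A375 and 13 with IgG, SESN2 had 26, 61 and 33 and also 13 with IgG, and ATF5 had 79, 116 and 101 with 22 for IgG. The nearest enriched peak was centred at position -13418 relative to the DDIT4 start (chr10:72259959-72261053, 81, 141 and 103 counts, IgG 6) and at -10391 relative to that of SESN2 (chr1:28248581-28249674, 92, 144 and 102 counts, IgG 8). For CHAC1 it was centred at -11837 (55, 82 and 70 counts, IgG 7). ATF5 had no enriched peak within 50 kb.

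In 1205Lu cells 0 of the 15 promoter peaks passed. The ATF4 promoter peak came nearest among those with the deepest counts, with 33, 63 and 58 counts with FRA1 and 12 with IgG (4.28 times, 95% interval 2.38 to 8.46). At the TRIB3 start FRA1 gave 14, 6 and 5 counts and IgG gave 19. That was 0.44 times the IgG count (95% interval 0.23 to 0.84), so FRA1 was below IgG there although its libraries had larger totals. At the MANE start of GDF15 FRA1 gave 3, 2 and 4 and IgG 4 (0.75 times, 0.21 to 3.33). Mean FRA1 counts were thus not above IgG at either start. The single enriched peak lay inside INO80, 37606 bases downstream of the CHAC1 start (chr15:40990320-40991835), with 37, 66 and 45 counts and 6 with IgG. In A375 cells the same peak had 7, 7 and 11 counts and 7 with IgG, a log2 difference between the lines of 5.23 ± 0.27 (adjusted p = 8.16e-14, edgeR).

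The FRA1 libraries of the lines were compared directly with edgeR on peak counts. Replicates 2 and 3 of 1205Lu differed by about as much as sampling noise gives (over 8327 peaks with 50 or more counts in the pair, a minimum chosen after the data were seen, chi-square divided by its degrees of freedom was 1.01, against 1.49 or more for the pairs with replicate 1) and were counted as 1 sample. Of 43 peaks near the 10 genes that were tested, 15 were higher in 1205Lu and 6 in A375, against 24.3% and 29% of 53300 peaks. Among the 15 promoter peaks 8 were higher in 1205Lu and 0 in A375, and the share over promoter peaks of all genes was not computed. The largest difference, 2.91 ± 0.55, was at chr19:18380221-18380588, 1582 bases from an annotated start of GDF15. Counts there were low, 8, 14 and 4 in 1205Lu (IgG 1) and 5, 4 and 13 in A375 (IgG 5), and it was enriched in neither line. The peak at the DDIT4 start followed at 1.87 ± 0.28 and that at the ASNS start at 1.54 ± 0.36. These are shares of a library's total in peaks. At the same 15 promoter peaks FRA1 was above the IgG count plus 1 in 15 in A375 but in 8 in 1205Lu cells, so a higher share in 1205Lu was not the same as more counts over IgG, and the part of background in the difference was not tested. Leaving out the summed pair left 1 peak higher in A375 and 10 in 1205Lu, with 1 library of 1205Lu that is then assumed to vary as those of A375 do. Leaving out A375 replicate 1 left 3 and 13, and DESeq2 called 0 as higher in A375.

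The AP-1 element lay within 100 bases of the centre in 7 of the 45 peaks, where 28.532% of all consensus peaks had it, and anywhere in the peak in 22, where 57.704% had it. The C/EBP-ATF element lay within 100 bases of the centre in 2, in PSAT1 and in a peak centred at -8870 relative to the TRIB3 start, where 4.109% of all peaks had it, and anywhere in 13, where 14.849% had it. Of the peaks named above, those at ATF5, DDIT3, TRIB3, PSAT1 and the upstream GDF15 start held an AP-1 match, as did the enriched peak upstream of DDIT4 and the one in INO80. The promoter peaks of ATF4, DDIT4, SESN2 and ASNS held none, nor did the peak at the MANE start of GDF15. The GDF15 peak at chr19:18380221-18380588 held no AP-1 match either, but a C/EBP-ATF match.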

How the data were processed

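After removal of adapters with cutadapt (1.8.1), the authors aligned strand-specific RNA-seq reads to GRCh38 with STAR (2.7.7a) and deposited expected counts per gene from RSEM (1.3.0), which are whole numbers in the table. Their Cut&Run reads were aligned to GRCh38 with Bowtie2 (2.4.1), peaks were called with MACS2 (2.1.1.20160309), and the authors deposited counts per consensus peak and library. Versions are from the submitters' processing notes, which also list DESeq2 (1.36.0) and ChIPseeker (1.32.1). Whether gene counting used strand, and whether peaks were called per sample, is not given in the sources used here.

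Genes were filtered with filterByExpr and tested with edgeR (4.0.16, R 4.3.3, limma 3.58.1) by the quasi-likelihood test with TMM and Benjamini-Hochberg adjustment over all genes tested. Each line was fitted alone, and the interaction and the si-NT comparison over all 12 samples. Background shares are over protein-coding genes. DESeq2 (1.42.0), other normalizations and filters and left-out samples were alternatives. CPM used TMM-scaled library sizes. A prior count of 2 entered the log2 CPM behind the GDF15 pattern and the check of same-numbered samples. Fitted folds used edgeR's default prior count. Scripts were tested on simulated data.

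Near peaks overlapped 50 kb around the MANE start in the GENCODE 44 annotation, and promoter peaks lay within 3 kb of an annotated start of the gene. IgG had 1 library per line. The ratio to IgG has an exact interval for counting error only. FRA1 libraries were compared between lines by edgeR on peak counts, with 1205Lu replicates 2 and 3 summed. Python 3.11.15, pandas 2.3.3 and scipy 1.17.1 were used for the rest.

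The 10 genes and the gene lists were chosen with earlier results of these data known. Named beside the 10 genes are FOSL1, the eIF2 kinases and PPP1R15 genes, from the list of other targets the 5 called genes with the largest change in each direction and line, from each further list the 2 such genes, and the 5 genes with the pattern nearest to GDF15. SLC3A2, SLC7A11, VEGFA and EPRS were named after their values were seen.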

Additional observations from a re-analysis of the deposited data

Results flagged for a closer look

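For 7 of the 10 genes the response to FRA1 silencing differed between 1205Lu and A375 cells by the interaction test of edgeR, always with the more positive value in 1205Lu. The difference, the response in 1205Lu minus that in A375 on the log2 scale, was 1.21 for TRIB3 (adjusted p = 7.9e-10), 1.13 for DDIT3 (adjusted p = 5.23e-08), 1.11 for GDF15 (adjusted p = 3.85e-09) and 1.06 for DDIT4 (adjusted p = 1.92e-10). It was 0.64 for ATF4 (adjusted p = 2.15e-11), 0.46 for ATF5 (adjusted p = 0.00402) and 0.26 for PSAT1 (adjusted p = 0.00891). The lines also differed in how much FOSL1 mRNA was left after silencing, and the part of that in these differences was not tested. Groups of 3 samples are too small for the search for samples that stand apart.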

How the results depend on the processing

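Among the summary counts, 143 kept their size within 1.5 times under the alternatives that changed a setting and 39 did not, and 180 against 10 when a sample was left out. With a log2 fold change beyond 1 also required, 1 of the 10 genes rose in A375 and 2 in 1205Lu cells, and 0 fell. By that rule 1 of the other ATF4 and CHOP targets rose in A375 and 2 in 1205Lu cells, and 0 fell. Of the sensors and of the endoplasmic reticulum genes 0 passed in either direction and line. Of the p53 targets 3 rose and 0 fell in each line. In 1205Lu cells 1 of the 10 genes, ASNS, fell with no filter on low counts, with all 12 samples in one fit and at an adjusted p under 0.01, and 1 to 2 with a sample left out, because the call of CHAC1 was lost. Of the sensors 2 rose in 1205Lu at an adjusted p under 0.01 and 3 to 5 with a sample left out, and 7 endoplasmic reticulum genes rose with no filter. In si-NT cells 4 genes were higher in 1205Lu with DESeq2 and with upper-quartile normalization. Signs changed only for differences that were not called in the report: ATF4 in si-NT cells (-0.0656 with no filter, and from -0.000973 to 0.0705 with a sample left out), and the interactions of ASNS (-0.0152 to 0.15) and CHAC1 (-0.18 to 0.19, with 0.08 without A375 si-NT replicate 3).

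At 8 times IgG 10 near peaks and 2 promoter peaks were enriched in A375 and 0 near peaks in 1205Lu, and at 2 times IgG 11 promoter peaks in A375 and 3 near and 1 promoter peak in 1205Lu. Scaled to the same total, which takes out the average excess over IgG, 0 near and 0 promoter peaks were enriched in A375 and 0 near peaks in 1205Lu. With 1 library left out, 1 to 2 near and 0 to 1 promoter peaks were enriched in 1205Lu. Between the lines 1 to 5 peaks were then higher in A375 and 10 to 17 in 1205Lu, and with DESeq2 0 were higher in A375. Replicates 2 and 3 of 1205Lu were under the limit set on chi-square divided by its degrees of freedom with a minimum of 50 counts per pair but not with 20 (1.06), and kept as separate samples they gave 14 peaks higher in 1205Lu and 7 in A375. Over whole peaks 22 held the AP-1 and 13 the C/EBP-ATF element. Except where the setting itself asks for more or counts a wider window, the cause was not tested.

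Same-numbered samples did not deviate together (correlations -0.02 to 0.02), so the numbers were not treated as pairing. With the replicate block, ATF5 was no longer called in si-NT cells (-0.25, adjusted p = 0.0599) and CHAC1 was (0.66, adjusted p = 0.0258), and 13 near peaks were higher in 1205Lu and 6 in A375. CHAC1, at a few CPM, and the 1205Lu Cut&Run libraries set the limits of depth.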

Other observations

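The endoplasmic reticulum branch of stress signaling was read from 19 genes, targets of ATF6 and XBP1 together with ATF6, XBP1 and the sensor ERN1 themselves. They were called in both directions. In A375 cells 14 rose and 3 fell (median log2 fold change 0.25), and in 1205Lu cells 4 rose and 10 fell (median -0.15). CALR, DNAJB11, HSP90B1, MANF, PDIA4 and PDIA6, 6 genes, were up in A375 and down in 1205Lu. The share of all protein-coding genes with that joint pattern was not computed. Of all protein-coding genes 29.9% rose and 27.8% fell in A375 and 24% rose and 23% fell in 1205Lu cells, so the 4 rises in 1205Lu were close to that share. The interaction called 14 of the 19 as more positive in A375 and 1, ERN1, as more positive in 1205Lu, against 18.9% and 19.9% of all protein-coding genes. HSPA5 (BiP), the main chaperone of the compartment, rose from a mean of 427 to 569 CPM in A375 (0.41 ± 0.02, adjusted p = 9.31e-15, edgeR) and was not called in 1205Lu cells, with means of 881 and 913 CPM (0.04 ± 0.02, adjusted p = 0.099). DNAJB9, a cofactor of BiP, rose by 0.83 in A375 and 0.30 in 1205Lu, and SEL1L, of the degradation machinery, by 0.57 and 0.10. DNAJC3, an inhibitor of PERK and PKR, fell by 0.49 in A375 and by 0.94 in 1205Lu cells, and HYOU1, a chaperone, fell by 0.39 and by 0.61. ERN1 (IRE1) rose by 0.51 in 1205Lu cells.

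GDF15 and SESN2, the 2 of the 10 genes that rose in both lines, are also counted among the targets of p53. The rest of the 10, which moved in different directions, were not sorted by control through p53. Of 20 other p53 targets 16 rose and 2 fell in A375 (median 0.46) and 14 rose and 4 fell in 1205Lu cells (median 0.36). Of all protein-coding genes 29.9% rose and 27.8% fell in A375. In 1205Lu cells 24% rose and 23% fell, so the 4 falls there were close to that share. In both lines 12 of the 20 rose, and the share of all protein-coding genes that did so was not computed. CDKN1A (p21), the cell cycle inhibitor, rose from 184 to 394 CPM in A375 (1.09 ± 0.02) and from 167 to 287 in 1205Lu cells (0.76 ± 0.03). BTG2, an antiproliferative gene, rose by 1.08 in A375, TP53INP1 by 1.504 and BBC3 (PUMA), a death factor, by 1.496 in 1205Lu cells. POLH (-0.21) and BAX (-0.20) fell in A375, and TP53I3 (-0.54) and RPS27L (-0.23) fell in 1205Lu cells. AEN, RPS27L and TP53I3 were up in A375 and down in 1205Lu, a joint pattern whose share over all protein-coding genes was not computed. The interaction called 8 of the 20 as more positive in A375 and 3 as more positive in 1205Lu, against 18.9% and 19.9% of all protein-coding genes. For GDF15 the response was more positive in 1205Lu (1.11 ± 0.10), and for SESN2 no difference was called.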
